A study of Schizosaccharomyces pombe with 6 samples.

Results

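Genes that moved the same way under 2 TOR inhibitors were described in fission yeast, Schizosaccharomyces pombe. A gene was taken when its value in all 4 treated libraries lay on the same side of both untreated libraries and its mean over the 6 libraries was at least 1 FPKM (fragments per kilobase of gene model, scaled to the depth of the library). This rule found 1979 genes, of which 913 were higher and 1066 were lower in treated cells, among 4847 genes at or over that mean and 7268 genes in all. A further 2868 genes over the mean lay on neither side, and 131 genes on 1 side were under it and were left out. The members were thus chosen by their own values, so their direction relative to untreated cells is a description and not a test.

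Wild-type cells of strain 972 h- were grown in rich medium (YES) with glucose. They received 100 nM rapamycin, 100 nM rapalink-1 or no drug (untreated), and were collected after 5 h, with 2 libraries per condition. The paper calls the sequenced control cells only untreated and does not state whether they received the drugs' solvent. The submitters describe 2 mother cultures, each divided into 3 flasks. The labels do not say which flask came from which mother culture, so p-values measure the spread between these libraries, part of which may be technical. No deletion, tag or second agent was carried by any group, and all the cells came from 1 haploid strain of 1 mating type. RNA was measured by sequencing polyA-selected RNA from whole cultures, so fewer expressing cells and less RNA per cell cannot be told apart.

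TOR is a protein kinase that works in the complexes TORC1 and TORC2. In growing yeast TORC1 favours translation, ribosome production and growth, and holds back autophagy and the response to nitrogen starvation. Rapamycin binds the peptidyl-prolyl isomerase Fkh1 (FKBP12), and the pair then binds the kinase. Rapalink-1 joins a rapamycin-like part to an inhibitor of the kinase's active site through a linker.

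The libraries held between 16527483 and 26321118 reads assigned to genes. The 10 most abundant genes took between 7.51% and 7.91% of a library's reads, and the scaling factors between libraries lay between 0.997 and 1.002. Of the markers of the h- (M) mating type, mfm1, mfm2, mam2 and mam1 were detected, mfm3 was listed at 0 and mat1-Mc stayed between 0 and 0.52 FPKM. The P-cell genes map2 and map3 had between 2.21 and 3.56 FPKM.

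The share of all genes tested that met the rule was 18.8% for higher and 22.0% for lower. With limma, 989 genes (20.4%) were called higher and 816 (16.8%) lower in the mean of both drugs against untreated cells at an adjusted p of at most 0.05. These calls covered 716 of the 913 higher and 690 of the 1066 lower genes, which follows from the rule and is no support for it. The count depends on how spread is measured. With the 4 treated libraries taken as 1 group, so that the difference between the drugs counts as spread, limma called 9 genes higher and 0 lower, with 1138 genes at an unadjusted p under 0.05, while edgeR and DESeq2 with 1 mean per drug called 997 and 885, and 803 and 685. Without untreated replicate 1 limma called 640 higher and 376 lower, and without untreated replicate 2 it called 699 higher and 482 lower. Quantile normalization turned the split of calls round, to 746 higher and 1113 lower (40.1% higher, against 54.8%). An exact permutation test of 4 against 2 libraries has 15 splits and cannot give a two-sided p under 0.133, so no single gene can pass 0.05 that way.

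Most of the changes were small. The median log2 difference of the higher genes was 0.20 with rapamycin and 0.33 with rapalink-1, and that of the lower genes was −0.13 and −0.21. The nearest treated and untreated values were at least 1.2-fold apart for 163 higher genes and 25 lower genes, at least 1.5-fold for 38 and 1, and at least 2-fold for 10 and 0. Other gene models covered at least 50% of 111 higher genes (12.2%) and 98 lower genes (9.19%), against 13.6% of all tested. How reads over shared stretches were assigned is not known without the strand setting. At the edge of the rule, cho2 was inside with 140.49 FPKM in its lowest treated and 140.48 FPKM in its highest untreated library, while mnh1 was outside with 89.01 FPKM in its lowest treated and 89.04 FPKM in its highest untreated library. At the edge of the mean, SPNCRNA.786 was inside with 1.04 FPKM and SPAC1142.09 outside with 0.98 FPKM.

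Most genes of the core stress list were higher, and most genes of the lists of ribosomal proteins, translation factors and DNA replication were lower. The 12 leading genes in each direction are those with the largest change in the drug that moved them less. Changes are log2(scaled FPKM + 1) differences from untreated cells, with their standard error (SE) in limma.

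**Figure D1:**
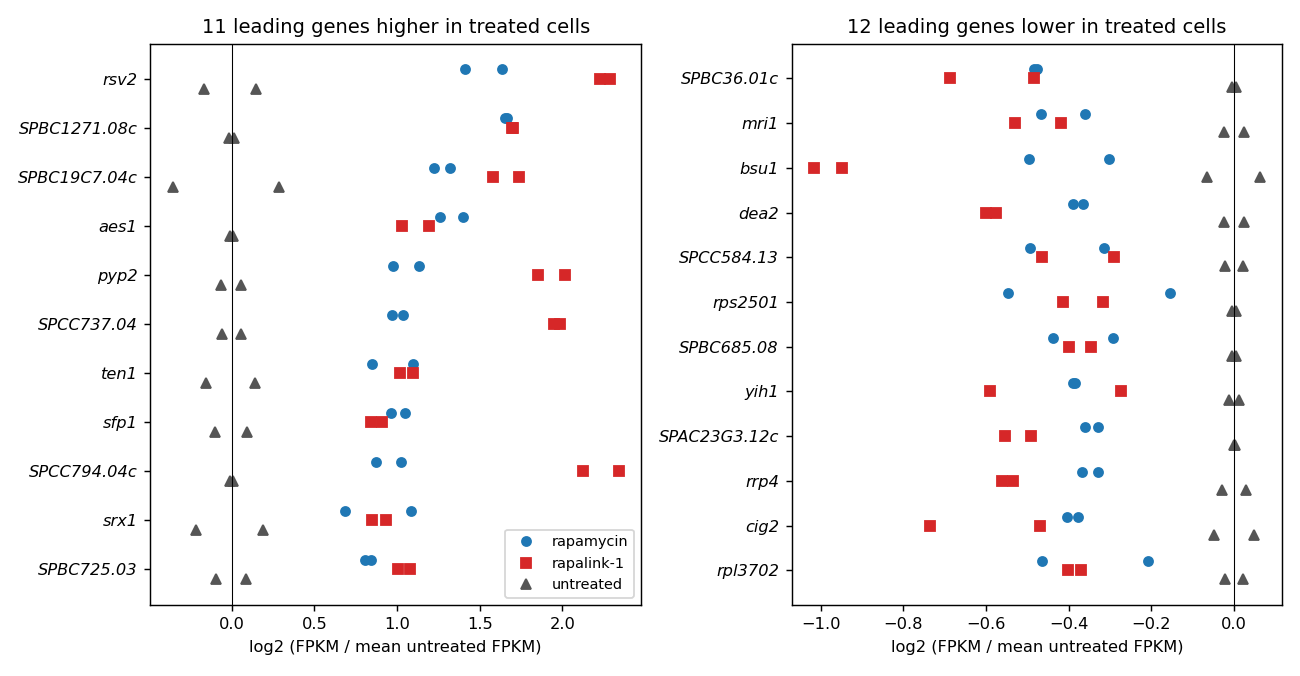
FPKM of 11 of the 12 leading higher genes (left) and 12 leading lower genes (right) in each library, as log2 of the ratio to the mean of the untreated libraries. Blue circles are rapamycin, red squares rapalink-1 and grey triangles untreated libraries, 2 of each. The higher genes move further from 0 than the lower genes.

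Among protein-coding genes, the largest increase common to both drugs was in rsv2, a zinc finger transcription factor on chromosome II. It had 36.2 and 42.1 FPKM with rapamycin and 66.2 and 63.7 FPKM with rapalink-1, against 12.1 and 15.1 FPKM in untreated cells. Its change was 1.47 ± 0.10 with rapamycin and 2.19 ± 0.10 with rapalink-1 (SE, n = 2 libraries per group). Of its model 37% is overlapped by other gene models. Without the strand setting, it is not known how reads over these stretches were assigned.

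Pyp2 is a tyrosine phosphatase that acts on the stress kinase Sty1. Its transcript, pyp2, had 28.1 and 31.3 FPKM with rapamycin and 51.5 and 57.7 FPKM with rapalink-1, against 13.7 and 14.9 FPKM in untreated cells. The rapalink-1 libraries lay above the rapamycin libraries, which lay above the untreated ones. SPCC737.04, of the UPF0300 family, had the same order, with 32.6 and 34.1 FPKM with rapamycin and 64.3 and 65.9 FPKM with rapalink-1, against 16.0 and 17.3 FPKM in untreated cells. In SPCC794.04c, an amino acid transporter, rapamycin gave 11.6 and 12.9 FPKM and rapalink-1 gave 32.2 and 27.7 FPKM, against 6.30 and 6.40 FPKM without a drug.

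In other leading genes the drugs were closer to each other, although aes1 and SPBC725.03 still differed between them in the test given further on. The gene aes1, described as an enhancer of RNA-mediated gene silencing, had 139 and 127 FPKM with rapamycin and 121.1 and 108 FPKM with rapalink-1, against 52.6 and 53.2 FPKM in untreated cells. For ten1, a subunit of the cap that protects telomeres, the values were 39.8 and 33.5 FPKM with rapamycin and 39.8 and 37.7 FPKM with rapalink-1, against 16.7 and 20.5 FPKM. The transcription factor gene sfp1 had 47.8 and 50.6 FPKM with rapamycin and 46.0 and 43.9 FPKM with rapalink-1, against 22.9 and 26.1 FPKM in untreated cells. Sulfiredoxin, encoded by srx1, restores overoxidised peroxiredoxin. Its gene had 17.3 and 22.9 FPKM with rapamycin and 20.6 and 19.4 FPKM with rapalink-1, against 9.27 and 12.3 FPKM in untreated cells. SPBC725.03, a pyridoxamine 5'-phosphate oxidase, had 99.9 and 97.4 FPKM, and 112 and 118 FPKM, against 52.1 and 59.1 FPKM. Leading genes with no assigned function were SPBC19C7.04c and SPBC1271.08c. Of the model of SPBC1271.08c, 62% is overlapped by other gene models.

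A list of 15 core stress genes was mostly higher. The list held 12 higher genes and no lower gene, against 18.8% and 22.0% of all genes tested, with a median log2 difference of 0.50 over all 15, against 0.01 over all genes tested. Hsp104 is a chaperone that pulls proteins out of aggregates. Its gene hsp104 had 133 and 137 FPKM with rapamycin and 267 and 264 FPKM with rapalink-1, against 89.9 and 101 FPKM in untreated cells. Metallothionein, encoded by zym1, binds zinc. It had 170.5 and 156.5 FPKM with rapamycin and 321 and 336 FPKM with rapalink-1, against 108 and 119 FPKM in untreated cells. Glutathione S-transferase Gst2 is a detoxifying enzyme. Its gene gst2 had 138 and 142 FPKM with rapamycin and 300.4 and 270.5 FPKM with rapalink-1, against 109 and 112 FPKM in untreated cells. The 3 genes of the list on neither side were gpd1, pcr1 and rds1.

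Among 38 redox and antioxidant genes, 14 (36.8%) were higher and 4 (10.5%) lower, against 18.8% and 22.0% of all genes tested. The superoxide dismutase gene sod1 had 639 and 636 FPKM with rapamycin and 813 and 728 FPKM with rapalink-1, against 518 and 522 FPKM in untreated cells. Of 70 heat shock and chaperone genes, 9 (12.9%) were higher and 20 (28.6%) lower. The heat shock gene hsp9 was higher, with a change of 0.40 ± 0.07 with rapamycin and 0.84 ± 0.07 with rapalink-1. The chaperonin subunit gene cct7 was lower, at −0.22 ± 0.04 and −0.25 ± 0.04, and so was pss1, a heat shock protein of the Hsp70 family, at −0.26 ± 0.04 and −0.37 ± 0.04. The list thus had members on both sides, in shares not far from those of all genes tested.

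Of 53 autophagy and vacuole genes, 22 were higher, 3 were lower and 28 lay on neither side, against 18.8% higher and 22.0% lower of all genes tested. Of 42 proteasome genes, whose products degrade marked proteins, 3 (7.14%) were higher, 9 (21.4%) lower and 30 on neither side. Their lower share was thus close to that of all genes tested. The beclin gene atg6 belongs to the lipid kinase complex that starts autophagosomes. It had 24.7 and 25.5 FPKM with rapamycin and 29.7 and 27.4 FPKM with rapalink-1, against 17.6 and 19.2 FPKM in untreated cells. The change of atg1802, a WD repeat protein of autophagy, was 0.36 ± 0.06 with rapamycin and 0.79 ± 0.06 with rapalink-1. That of atg14 was 0.29 ± 0.06 and 0.31 ± 0.06. The vacuolar amino acid transporter gene avt3 stood on the lower side, at −0.22 ± 0.04 and −0.47 ± 0.04.

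The nitrogen starvation list of 15 genes had 4 higher genes (26.7%) and none lower, against 18.8% and 22.0% of all genes tested. The 4 higher were aes1, ste11, mei2 and isp5. The amino acid permease gene isp5 had 8.09 and 8.54 FPKM with rapamycin and 208 and 170 FPKM with rapalink-1, against 6.06 and 7.10 FPKM in untreated cells. The other 11 lay on neither side. Among these was the oligopeptide transporter gene isp4, with 16.6 and 17.4 FPKM with rapamycin and 345 and 281 FPKM with rapalink-1, against 19.5 and 23.5 FPKM in untreated cells. Ste11, the HMG-box factor that turns on mating genes, had 29.6 and 38.1 FPKM with rapamycin and 56.4 and 49.0 FPKM with rapalink-1, against 18.1 and 21.7 FPKM in untreated cells. The meiosis gene mei2 encodes an RNA-binding protein that drives entry into meiosis. It had 3.46 and 3.16 FPKM with rapamycin and 23.1 and 21.0 FPKM with rapalink-1, against 1.71 and 2.01 FPKM in untreated cells. The lncRNA sme2 (meiRNA), which binds Mei2, had 6.92 and 9.36 FPKM with rapamycin and 30.5 and 24.5 FPKM with rapalink-1, against 2.63 and 4.19 FPKM in untreated cells. In the mating and meiosis list, 7 of 34 genes (20.6%) were higher, close to the share of all genes tested, and none lower.

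Several metabolic genes were higher with both drugs. Citrate synthase gene cit1 had 285 and 279 FPKM with rapamycin and 272 and 268 FPKM with rapalink-1, against 211 and 231 FPKM in untreated cells. The lipoamide dehydrogenase gene dld1 was higher by 0.24 ± 0.04 and 0.26 ± 0.04, and the isocitrate dehydrogenase gene idp1 by 0.26 ± 0.03 and 0.23 ± 0.03. In the glycolysis and citric acid cycle list 13 of 35 genes (37.1%) were higher and 4 (11.4%) lower, against 18.8% and 22.0% of all genes tested. Gdh2, the NAD-dependent glutamate dehydrogenase, had 18.0 and 19.0 FPKM with rapamycin and 29.7 and 31.0 FPKM with rapalink-1, against 12.5 and 12.7 FPKM in untreated cells. Among regulators, cgs1, the regulatory subunit of protein kinase A, had 21.1 and 21.2 FPKM with rapamycin and 28.3 and 27.6 FPKM with rapalink-1, against 12.6 and 14.0 FPKM in untreated cells. Maf1, the repressor of RNA polymerase III, stood at 29.9 and 28.1 FPKM, and 38.0 and 34.5 FPKM, against 23.2 and 23.4 FPKM. Of the 7 tested subunits of the TOR complexes, toc1 was higher (0.22 ± 0.05 and 0.19 ± 0.05) and the other 6 lay on neither side.

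The change was larger with rapalink-1 in 711 of the 913 higher genes and more negative with it in 788 of the 1066 lower genes. These are counts of signs among genes chosen with the same values. Limma called 339 and 238 of them between the drugs at an adjusted p of at most 0.05. Over all genes tested, the median log2 difference of rapalink-1 minus rapamycin was −0.004. The lifespan gene ecl1 rose more with rapamycin. It had 26.4 and 24.5 FPKM with rapamycin and 13.0 and 12.9 FPKM with rapalink-1, against 9.97 and 10.9 FPKM in untreated cells.

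The cytosolic ribosomal protein genes were lower almost as a group. Of 107 tested, 96 were lower and none higher, against 22.0% and 18.8% of all genes tested. Their median difference was −0.17 with rapamycin and −0.30 with rapalink-1. The changes were small, and none of the 107 had its nearest treated and untreated values at least 1.2-fold apart. The gene rps2501, for the 40S subunit protein S25, had 1268 and 966 FPKM with rapamycin and 1060.0 and 1134 FPKM with rapalink-1, against 1416 and 1408 FPKM in untreated cells. The 60S gene rpl3702 had 716.5 and 599.8 FPKM with rapamycin and 626 and 641 FPKM with rapalink-1, against 840.5 and 815 FPKM in untreated cells. In both genes 1 rapamycin library stood closer to the untreated ones than the other did. Quantile normalization left 45 of the 107 genes lower instead of 96 and moved the group's median in the mean of both drugs to −0.08, against −0.23. Another 24 genes of this list were under the mean of 1 FPKM. Of these, 23 were listed at 0, and all 24 have at least 90% of their model inside another gene model, so they were not measured here.

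Translation factor genes were also mostly lower. Of 42 translation factors tested, 33 (78.6%) were lower and 1 (2.38%) higher, against 22.0% and 18.8% of all genes tested. Their median was −0.13 with rapamycin and −0.30 with rapalink-1. The eIF2 subunit genes stood among the lower ones. The gamma subunit gene tif213 had 407 and 399 FPKM with rapamycin and 351 and 362 FPKM with rapalink-1, against 482 and 473 FPKM in untreated cells. The alpha subunit gene tif211 had 338 and 308.5 FPKM, and 294 and 302 FPKM, against 406 and 392 FPKM, with 45% of its model inside another. The factor gene tif6, which works in both 60S assembly and subunit joining, was lower, at −0.26 ± 0.04 and −0.37 ± 0.04. The 1 higher gene, SPBC460.02c, is described as an elongation factor. Of 62 tRNA ligase and modification genes, 27 (43.55%) were lower, 2 (3.23%) higher and 33 on neither side. Of 64 mitochondrial ribosomal protein genes, 24 (37.5%) were lower, 3 (4.69%) higher and 37 on neither side.

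Ribosome biogenesis genes did not follow these. Of 91 tested, 11 were lower and 5 higher, against 22.0% and 18.8% of all genes tested. Their median difference was 0.20 with rapamycin and −0.16 with rapalink-1, so the drugs stood on opposite sides of 0. Among the 11 lower genes was nop10, a subunit of the box H/ACA particle that guides pseudouridylation, with 395 and 378 FPKM with rapamycin and 296 and 327 FPKM with rapalink-1, against 469 and 436 FPKM in untreated cells. Of 26 genes of RNA polymerases I and III, 6 (23.1%) were lower, close to the share of all genes tested, 1 was higher and 19 lay on neither side. Their median difference was 0.02 with rapamycin and −0.22 with rapalink-1. The RNA polymerase III subunit gene rpc53 had 58.1 and 59.8 FPKM with rapamycin and 54.1 and 55.3 FPKM with rapalink-1, against 70.2 and 72.2 FPKM in untreated cells.

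DNA replication genes were lower in 21 of 37 (56.8%), with 1 (2.70%) higher, against 22.0% and 18.8% of all genes tested. The shift was small, with a median difference of −0.10 with rapamycin and −0.13 with rapalink-1. Limma called 11 of the 37 lower in the mean of both drugs, against 16.8% of all genes tested. The DNA polymerase alpha subunit gene spb70 had 37.1 and 36.4 FPKM with rapamycin and 35.1 and 35.0 FPKM with rapalink-1, against 45.0 and 44.5 FPKM in untreated cells. The clamp loader gene rfc2 had 62.4 and 64.3 FPKM, and 62.1 and 61.5 FPKM, against 73.7 and 74.3 FPKM. Mcm2, of the replicative helicase, was lower, at −0.24 ± 0.05 and −0.21 ± 0.05. In the mitosis and cyclin list 16 of 62 genes (25.8%) were lower and 8 (12.9%) higher, against 22.0% and 18.8% of all genes tested. The cyclin gene lcp1 was higher by 0.26 ± 0.06 with both drugs, the checkpoint ubiquitin ligase gene dma1 by 0.19 ± 0.05 and 0.31 ± 0.05, and the cyclin gene puc1 by 0.17 ± 0.08 and 0.23 ± 0.08. Among the lower genes of the division cycle, the kinase gene cdc2 was lower, at −0.24 ± 0.05 and −0.22 ± 0.05, the cohesin gene rad21 at −0.28 ± 0.05 and −0.35 ± 0.05, and mik1, a kinase that restrains Cdc2, at −0.24 ± 0.07 and −0.38 ± 0.07. The cyclin gene cig2 was among the leading lower genes, but 77% of its model lies inside another.

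Nucleotide synthesis genes gave 7 lower of 16 (43.75%) and none higher, against 22.0% and 18.8% of all genes tested. Ade4 catalyses the first step of purine synthesis. The change of ade4 was −0.16 ± 0.05 with rapamycin and −0.37 ± 0.05 with rapalink-1, that of ura5 was −0.16 ± 0.05 and −0.47 ± 0.05, and that of ura4 was −0.14 ± 0.04 and −0.29 ± 0.04. Some of the 12 leading lower genes follow. The carrier gene bsu1 takes up pyridoxine. It had 78.5 and 68.6 FPKM with rapamycin and 50.2 and 47.8 FPKM with rapalink-1, against 101 and 92.4 FPKM in untreated cells. The adenine deaminase gene dea2 had 149.5 and 147 FPKM, and 127 and 129 FPKM, against 196 and 189.5 FPKM. The predicted spermidine transporter gene SPBC36.01c had 13.8 and 13.9 FPKM with rapamycin and 12.02 and 13.8 FPKM with rapalink-1, against 19.4 and 19.3 FPKM in untreated cells. The methionine salvage gene mri1 was lower, at −0.40 ± 0.05 and −0.46 ± 0.05, and the exosome subunit gene rrp4 at −0.34 ± 0.05 and −0.53 ± 0.05.

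**Figure D2:**
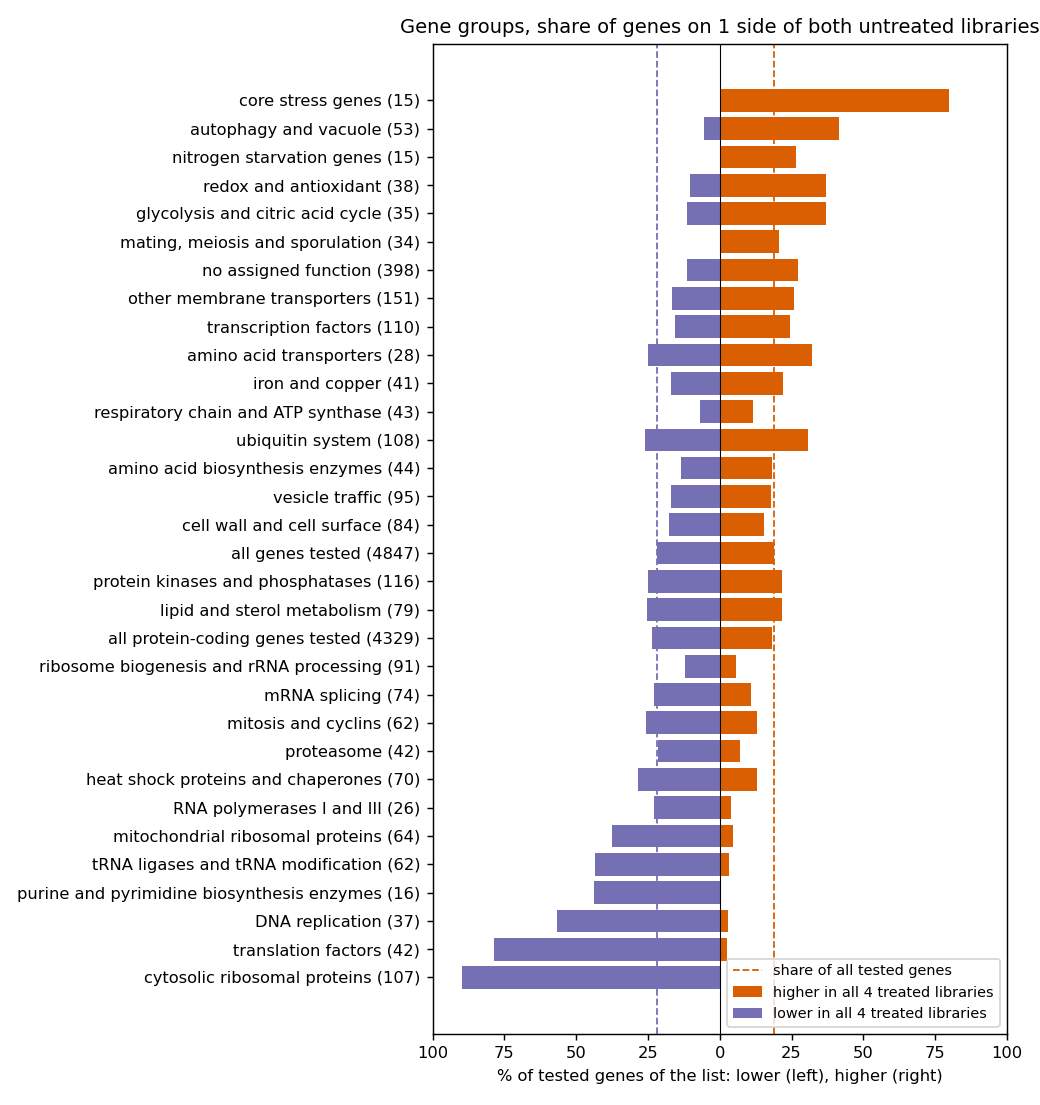
Percent of the tested genes of each list that were higher (right) or lower (left) in all 4 treated libraries, with the number tested in brackets. Dashed lines are the shares of all genes tested, 18.8% and 22.0%. The stress list of 15 genes lies furthest to the right and the ribosomal protein list of 107 genes furthest to the left.

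Further lists follow, to be read against 18.8% higher and 22.0% lower of all genes tested. Genes with no assigned function had 108 higher (27.1%) and 45 lower (11.3%) of 398. Respiratory chain and ATP synthase genes had 5 higher (11.6%) and 3 lower (6.98%) of 43, with 35 on neither side. Membrane transporters other than those for amino acids had 39 higher (25.8%) and 25 lower (16.6%) of 151. Amino acid transporters had 9 (32.1%) and 7 (25%) of 28. Transcription factors had 27 (24.55%) and 17 (15.45%) of 110, and protein kinases and phosphatases 25 (21.55%) and 29 (25%) of 116. The ubiquitin system had 33 (30.6%) and 28 (25.9%) of 108, and lipid and sterol metabolism 17 (21.5%) and 20 (25.3%) of 79. Lists may share genes, and the words that define them were taken from the descriptions in the files. 

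The share of lower genes rose with the level in untreated cells. Ribosomal protein genes, mostly lower, were not taken out of these counts, and they took 19.4% and 19.05% of the reads in untreated cells. Of 158 genes over 1000 FPKM in untreated cells, 115 (72.8%) were lower and 10 (6.33%) higher. From 200 to 1000 FPKM, 134 of 392 genes (34.2%) were lower and 68 (17.35%) higher. Of 607 genes under 5 FPKM, 43 (7.08%) were lower and 147 (24.2%) higher. The higher genes took 13.7% and 14.2% of the reads with rapamycin and 16.1% and 15.8% with rapalink-1, against 11.7% and 12.03% in untreated cells. The lower genes took 41.2% and 40.5%, and 36.4% and 37.2%, against 44.2% and 43.8%. All 4 treated libraries stood apart from both untreated ones in each share, which the rule fixes.

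**Figure D3:**
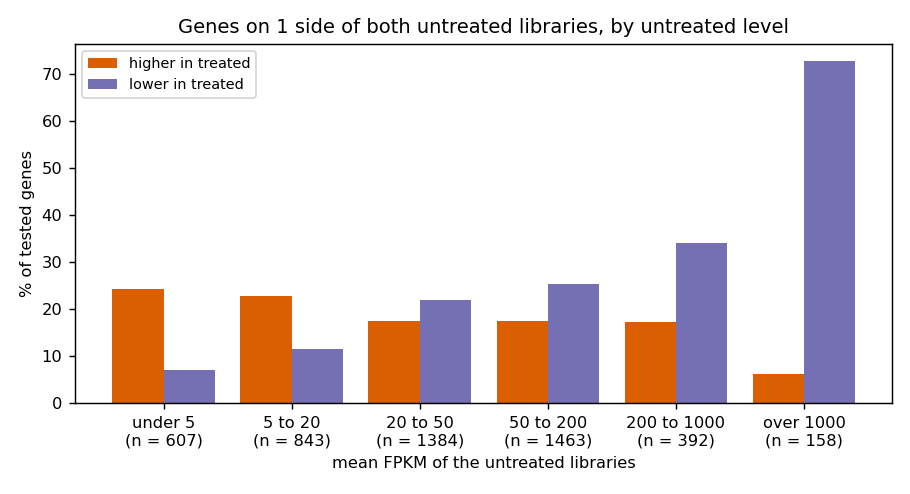
Percent of tested genes that were higher (orange) or lower (purple) in all 4 treated libraries, by the mean FPKM of the untreated libraries. Of the 158 genes over 1000 FPKM, 72.8% were lower. Ribosomal protein genes are included.

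Of 474 non-coding RNAs tested, 109 (23.0%) were higher and 36 (7.59%) lower, against 18.8% and 22.0% of all genes tested, and 329 lay on neither side. The higher share was close to the 24.2% of all genes under 5 FPKM. By kind, the higher and lower genes were 31 and 8 of 135 antisense RNAs and 64 and 17 of 229 intergenic RNAs. Other non-coding RNAs had 14 higher (12.7%) and 11 lower (10%) of 110, so their higher share was under that of all genes tested. How reads over an antisense RNA and its partner were assigned is not known without the strand setting. The intergenic RNA omt3 was the first of the named non-coding RNAs, with 9.37 and 9.83 FPKM with rapamycin and 71.8 and 58.4 FPKM with rapalink-1, against 1.39 and 1.94 FPKM in untreated cells. Within 100 kb of the ends of chromosomes I and II lay 44 of the 913 higher genes (4.82%) and 3 of the 1066 lower genes (0.281%), against 108 of the 4847 tested (2.23%).

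The difference between the drugs was tested with limma. The means compared do not use the untreated libraries, but the untreated replicates enter the estimate of the spread. The genes on 1 side were chosen with the same rapamycin and rapalink-1 values, so counts among them are not independent of that choice. With rapalink-1 the level was above that with rapamycin in 957 genes tested (19.7%) and below it in 845 (17.4%), at an adjusted p of at most 0.05. Quantile normalization turned this split round too, with 41.5% of the calls higher with rapalink-1, against 53.1%. Of the 913 genes higher in treated cells, 339 (37.1%) had a higher level with rapalink-1 than with rapamycin, 19 a lower one, and 555 were not called. Of the 1066 genes lower in treated cells, 238 (22.3%) had a lower level with rapalink-1, 14 a higher one, and 814 were not called. A gene not called is not shown to respond alike to both drugs. Over both sets, 257 genes were lower with rapalink-1. This count was 146 without rapamycin replicate 1, 138 without rapalink-1 replicate 1 and 399 with quantile normalization.

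**Figure D4:**
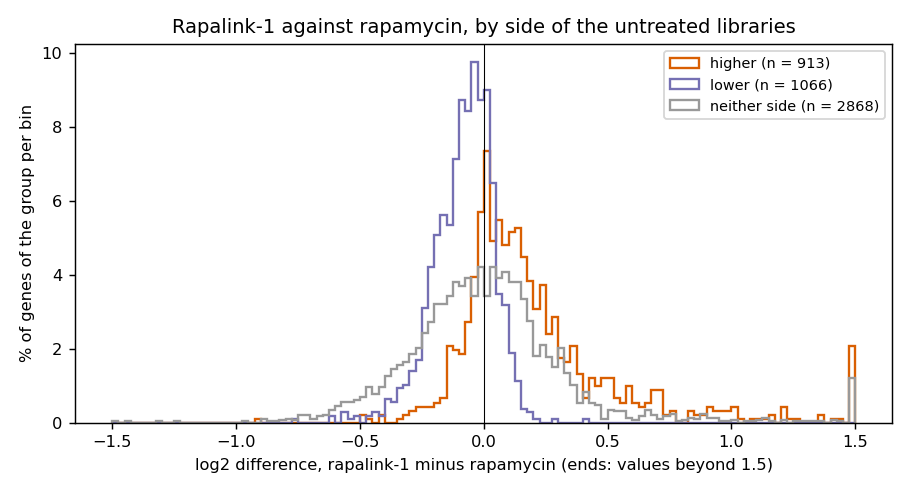
Log2 difference between rapalink-1 and rapamycin for the higher, lower and other genes, as percent of each set per bin, with values beyond 1.5 in the end bins. The higher genes lean to the right of 0 and the lower genes to the left, and genes on neither side spread to both.

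Large differences among the higher genes were in isp5 (4.34 ± 0.10, limma adjusted p = 5.19e-08), omt3 (2.63 ± 0.12, limma adjusted p = 1.6e-06), mei2 (2.42 ± 0.11, limma adjusted p = 1.35e-06) and sme2 (1.65 ± 0.19, limma adjusted p = 0.00027). The stress genes hsp104, zym1 and gst2 were higher with rapalink-1 by 0.97, 1.00 and 1.02. In ecl1 the difference was −0.92 ± 0.07 (limma adjusted p = 3.6e-05). For srx1 it was 0.01 ± 0.14 (limma adjusted p = 0.99), and for ten1 0.08 ± 0.10 (limma adjusted p = 0.57). The counts called in the lists stand beside 19.7% higher and 17.4% lower with rapalink-1 among all genes tested. Rapalink-1 gave the lower level in 74 of 91 genes of ribosome biogenesis and the higher in 1. With it, 33 of 107 ribosomal protein genes were lower and none higher, and 23 of 42 translation factors were lower and 1 higher. In 26 of 53 autophagy and vacuole genes the level was higher with rapalink-1 and in 6 lower. Core stress genes were higher in 11 of 15 and lower in 1. Quantile normalization gave 51 of 107 ribosomal protein genes lower and 1 higher.

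Sequence upstream of the genes was read from the RefSeq genome ASM294v3, since promoters of genes that move together can be compared for known motifs. Motifs were searched on both strands in the 250 bases before the start of each RefSeq gene model, for 4316 tested protein-coding genes. Models in the files begin a median of 41 bases earlier than those of RefSeq, so a match can lie inside a model of the files. The HomolD box (CAGTCACA), a core element of ribosomal protein promoters, was in 81 of 1028 lower genes (7.88%), 4 of 789 higher genes (0.507%) and 2.66% of all. It was in 73 of 107 ribosomal protein genes (68.2%). Without these genes it was in 17 of 932 lower genes (1.82%). HomolE was in 3.79% of the lower genes, 0.127% of the higher genes and 1.18% of all. It was in 32 of 107 ribosomal protein genes (29.9%), and without these genes in 8 of 932 lower genes (0.858%). The core of the site that the stress factor Atf1 recognises (CRE, TGACGT) was in 82 higher genes (10.4%), 34 lower genes (3.31%) and 5.38% of all. GATAAG was in 12.7% of the higher genes, 9.73% of the lower genes and 10.7% of all, and in 8 of 15 nitrogen starvation genes (53.3%). The forkhead element GTAAACAA was in 6.59% and 10.4%, against 8.41% of all, and the Ste11 element TTCTTTGTT in 1.90% and 0.973%, against 1.60%. A match is only a run of letters and says nothing of binding.

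**Figure D5:**
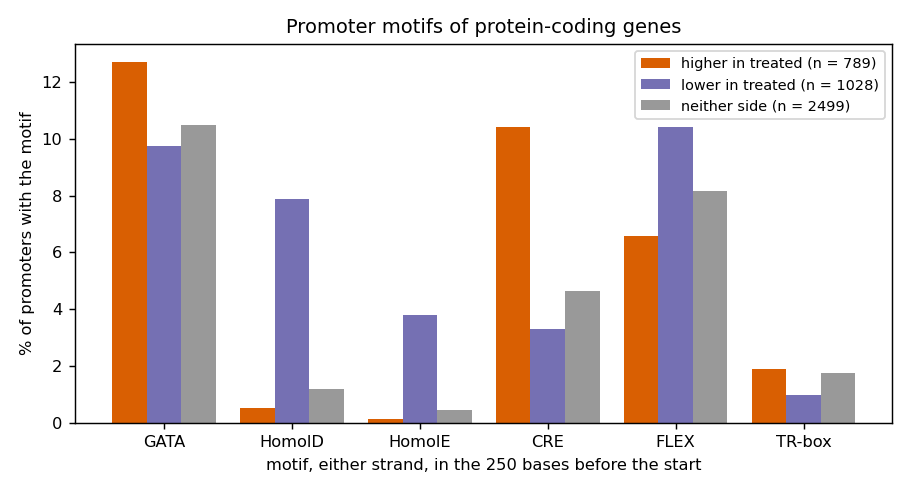
Percent of promoters with each motif for higher, lower and other tested protein-coding genes. HomolD and HomolE are most frequent in the lower genes and CRE in the higher genes.

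Sites in some of the named genes that have a match are shown as 30 bases, 5′ to 3′ on the gene's strand. The motif letters are in capitals, to show how the motifs stand in these genes. Genes without a match are not shown. The windows of rpl3702 and cgs1 reach into the gene's model in the files. Those of rsv2 and maf1 lie wholly inside it, since the models span II:3530760-3535288 (rsv2) and I:3007584-3009444 (maf1). Their sites are thus upstream of the RefSeq model but not of the measured one. The lower ribosomal protein genes shown have HomolD or its complement, at II:1274174-1274203 (rps2501, plus strand), III:1847907-1847936 (rpl3702, minus strand) and I:2853959-2853988 (rpl4102, minus strand).
rps2501: ttacccagaggCAGTCACAaatgtttggac
rpl3702: accctgagaaaTGTGACTGtttttttggtc
rpl4102: agccaaagaaaCAGTCACAttttcgtatat

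The higher genes rsv2, cgs1 and maf1 have CRE, at II:3532869-3532898 (rsv2, plus strand, both orientations overlapping), I:3642954-3642983 (cgs1, plus strand) and I:3009387-3009416 (maf1, minus strand). The higher genes ste11 and mei2 have the Ste11 element, at II:3983239-3983268 (ste11, plus strand) and I:4515166-4515195 (mei2, minus strand, the first of a pair).
rsv2: caatcagacgctTGACGTCAttctttatat
cgs1: tagtacattttaTGACGTatgagtgagcta
maf1: tagaagtgacatTGACGTtggacgcgacgc
ste11: aaagttgaatTTCTTTGTTtgattttcatt
mei2: gccgaccgatTTCTTTGTTcctattttaaa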

How the data were processed

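RNA was sequenced from 6 libraries as paired reads of 150 bases. The labels name HISAT2 2.0.5, StringTie 1.3.3b, featureCounts 1.5.0-p3 and DESeq2. The genome build and strand setting are not given in the sources used here. The authors deposited FPKM for every gene, and counts for part of the genes in 3 tables of their own comparisons, whose fold changes and p-values were not used. Reads recovered from the FPKM, were whole for all values (largest gap 5.2e-10) and equalled the deposited counts. Depth was between 16527483 and 26321118 reads, and precision is limited by 2 libraries per condition.

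Median-of-ratios factors were applied to the FPKM, log2(value + 1) was taken and limma 3.58.1 in R 4.3.3 was fitted with 1 mean per condition and an intensity trend, with Benjamini-Hochberg adjustment over 4847 genes. It was tested on simulated data. The 4 treated against 2 untreated contrast is the mean of both drugs. Both drugs share the untreated libraries. 

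The correlations of replicate differences between conditions were −0.0112, 0.00111 and 0.0415, so no clear effect shared by replicate number was seen. They cannot show whether the numbers follow the mother cultures. Alternatives were a pseudocount of 0.1, other filters and scalings, edgeR 4.0.16 and DESeq2 1.42.0, and leaving out each library. Members, lists and tests were chosen with earlier results of these data known. Genes were named by rule: protein-coding, mean of at least 5 FPKM, called in the pooled comparison, 12 in each direction by the smaller change of the drugs, 3 per list and direction, and 3 non-coding RNAs in each direction. Of these, 1 of the 12 leading higher genes is not reported here. Genes on neither side, genes at an edge of the rule, isp5 and isp4 were named after their values were seen. Gene models matched RefSeq for 6846 of 7268 genes, of which 99.5% share a start or an end. A search with BLAST 2.17.0 for copies of at least 95% identity over at least 50% found them for SPAC212.12 among the 163 named genes.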

Additional observations from a re-analysis of the deposited data

Results flagged for a closer look

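Of the 24 leading genes, 10 differed between the drugs in limma at an adjusted p of at most 0.05. Of all 4847 genes tested, 19.7% were called higher and 17.4% lower with rapalink-1 than with rapamycin. The log2 difference of rapalink-1 minus rapamycin was 0.72 in rsv2, 0.86 in pyp2, 0.95 in SPCC737.04, 1.22 in SPCC794.04c and 0.21 in SPBC725.03, so the increase was larger with rapalink-1. It was −0.21 in aes1, whose increase was larger with rapamycin. In the lower genes it was −0.57 in bsu1, −0.21 in dea2, −0.17 in SPAC23G3.12c and −0.19 in rrp4, so the decrease was larger with rapalink-1.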

How the results depend on the processing

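The pooled comparison gave 989 higher and 816 lower genes. With the drugs taken as 1 group of 4 libraries, limma called 9 and 0 (1138 at an unadjusted p under 0.05), where the difference between the drugs counts as spread by construction. Leaving out 1 library gave between 640 and 983 higher and between 376 and 789 lower. A replicate block gave 980 higher and 806 lower, although it is not known whether the replicate numbers follow the mother cultures. Between the drugs, 353 of the genes on 1 side were higher and 257 lower with rapalink-1. Quantile normalization gave 399 lower, and leaving out 1 library gave between 270 and 351 higher and between 138 and 230 lower. A replicate block gave 353 and 246. Requiring a gap of at least 1.2-fold left 163 higher and 25 lower of 913 and 1066. Leaving out 1 library gave between 1008 and 1288 higher and between 1159 and 1394 lower, since fewer values had to agree. Of 2750 values of named genes under an alternative, 300 lost the threshold and none changed sign, 155 of them with the drugs as 1 group. Of 768 counts of list members on 1 side, 134 moved by over 1.5 times. Of 544 list medians, an alternative added after seeing the data, 24 moved by more than the replicate spread. Where a library was left out, its lone partner was assumed to vary like the other groups.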
